A study of Drosophila melanogaster with 3 samples.

Results

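CG3919 is a Drosophila gene known only by its annotation number in the files used here, and its protein was mapped by chromatin immunoprecipitation and sequencing (ChIP-seq) in whole prepupae. The animals were males and females pooled, of strain CG3919-GFP, a stable transgenic line in which enhanced green fluorescent protein is fused to the C-terminus of CG3919 (CG3919-eGFP), and the precipitation used an antibody against GFP. There is 1 group of 3 biological replicates, so no treatment, genotype or stage is compared, and a site used in a few cell types and a weak site used in all of them cannot be told apart in whole animals. Animals without the tag were not analysed here. The promoter-near intronic peaks were the 1846 of 9569 reproducible peaks (19.3%, Wilson 95% interval 18.5 to 20.1, counting error only) whose summit, the base of highest signal, lay inside a gene span but in no annotated exon, with the nearest transcription start site (TSS) of any gene more than 500 and at most 3000 bp away. Positions are on build dm6, and the gene models came from Ensembl. These 1846 peaks are called members below. The same rule applied to the strongest 9569 candidate regions of replicates 1, 2 and 3 gave 1845, 1756 and 1843 members, a mean share of 19.0% ± 0.531 (SD, n = 3).

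Introns near a promoter are a common place for regulatory DNA. The first intron of many fly genes is long, and enhancers, the elements through which transcription factors raise or lower a promoter's output, are often found in it. Genes with several start sites also carry their downstream promoters inside introns of the longer transcripts, and a large intron can hold whole nested genes. In prepupae the steroid hormone ecdysone sets off cascades of transcription factors while imaginal discs turn into adult limbs, eyes and wings.

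The 4 strongest members lay in introns of ush, CG11050, Lk6 and CG32772, and their sequences are shown because the 5-base word CAGTG, described last, stood out in members. Each runs 120 bp to either side of the summit on the plus strand of dm6, read from the RefSeq genome of that assembly. Capitals mark each CAGTG and its reverse complement CACTG, and all other bases are in lower case. The windows are chr2L:480936-481176 in ush, chr2L:6612605-6612845 in CG11050, chr3R:11760924-11761164 in Lk6 and chrX:4910256-4910496 in CG32772.
ush: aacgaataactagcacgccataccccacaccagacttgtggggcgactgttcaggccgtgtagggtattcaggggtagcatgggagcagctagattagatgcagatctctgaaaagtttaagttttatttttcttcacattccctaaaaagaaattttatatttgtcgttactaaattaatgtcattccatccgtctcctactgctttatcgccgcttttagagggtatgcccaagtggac
CG11050: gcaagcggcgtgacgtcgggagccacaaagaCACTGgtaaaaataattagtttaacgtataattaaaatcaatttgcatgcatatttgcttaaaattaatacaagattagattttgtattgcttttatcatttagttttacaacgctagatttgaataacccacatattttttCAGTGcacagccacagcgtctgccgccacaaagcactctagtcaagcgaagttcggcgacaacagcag
Lk6: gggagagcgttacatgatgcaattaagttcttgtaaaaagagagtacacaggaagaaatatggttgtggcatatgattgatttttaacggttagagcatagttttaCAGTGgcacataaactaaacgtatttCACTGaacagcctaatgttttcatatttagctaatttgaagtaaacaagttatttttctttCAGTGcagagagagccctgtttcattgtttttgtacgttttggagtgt
CG32772: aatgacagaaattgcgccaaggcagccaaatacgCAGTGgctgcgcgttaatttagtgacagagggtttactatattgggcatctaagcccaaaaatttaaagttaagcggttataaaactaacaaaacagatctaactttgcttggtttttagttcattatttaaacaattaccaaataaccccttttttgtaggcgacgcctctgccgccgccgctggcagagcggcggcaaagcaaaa
The ush window holds no copy of the word although it is the strongest member. CG11050 has copies centred 87 bp to the left and 55 bp to the right of the summit, which read CACTG on the left and CAGTG on the right. Its intron is only 140 bp long in the shortest annotated form, less than the 241-bp window. The window therefore runs into exon sequence of that form, and these copies lie at or near the ends of the intron. Lk6 has 3 copies, and CG32772 has 1. In each window the 81 bases around the summit are richer in A and T than the window as a whole, at 70.4% against 57.3% in ush, 76.5% against 61.8% in CG11050, 69.1% against 65.6% in Lk6 and 71.6% against 57.7% in CG32772.

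The strongest members had similar ranks in the 3 replicates. They were picked by a signal pooled from these same replicates, so high ranks in each follow in part from that choice. Ranks here are by the authors' peak signal, with 1 the strongest, among the reproducible peaks and then among the 30000 candidates of each replicate. The strongest, chr2L:480552-481367, lay in the first intron of ush (u-shaped, a zinc finger cofactor of GATA factors), 1368 bp upstream of the TSS of its neighbour cbt (cabut, a zinc finger transcription factor). It ranked 3 among the reproducible peaks and 3, 3 and 3 in replicates 1, 2 and 3. In the second intron of CG11050 a member at chr2L:6612414-6612976 ranked 4, and 5, 2 and 4 in the replicates. The intron is only 140 bp long in its shortest annotated form, against a median of 6703 bp for the shortest intron around a member. Lk6, a kinase that phosphorylates the translation factor eIF4E, held the member at chr3R:11760813-11761311, 965 bp upstream of one of its own TSSs, which ranked 7, and 10, 8 and 6 in the replicates. CG32772 followed at chrX:4910023-4910800, 1274 bp downstream of its TSS, with rank 14, and 16, 13 and 14. CG9663 has a pair of members in 1 region, chr2L:3301859-3302671, at 945 and 745 bp downstream of its TSS. The stronger ranked 22, and 24, 23 and 26 in the replicates, and the weaker ranked 68, and 63, 94 and 72. The order of these leading members was nearly the same in each replicate.

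The next 10 members ranked between 27 and 66. They lay in introns of CG12769, CG3726, Trl, CG4496, HmgZ, Adf1, pum, CG42327, LPCAT and Mhcl. Trl encodes GAGA factor, which binds GA repeats and opens chromatin, and its member at chr3L:14759257-14759759, 1534 bp downstream of a Trl TSS, ranked 44, and 45, 40 and 43. Adf1 encodes a transcription factor with a MADF domain. Its member at chr2R:6662839-6663630 ranked 55, and 42, 74 and 50. The member in HmgZ, a gene for a high-mobility-group DNA-bending protein, at chr2R:21703083-21703696, also lay within the span of its paralogue HmgD and ranked 54, and 53, 71 and 42. In pum (pumilio, a repressor of translation) the member at chr3R:9228973-9229494 was nearest to the TSS of a long noncoding RNA, CR45196, and ranked 57, and 60, 48 and 58. LPCAT, an enzyme of phospholipid remodelling, had its member at chrX:9579082-9579612, with rank 63, and 62, 63 and 64. Of all 15 leading members, 14 were nearest to a protein-coding TSS, close to the 86.9% of all members and 85.4% of the territory for which this holds.

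The single peaks nearest to the bounds of the rule were not among the strongest. Just inside 500 bp was a member in Inos, which encodes the enzyme that makes inositol phosphate, at 501 bp and rank 9431, and just outside a peak in Tgi, a repressor of Yorkie targets, at 500 bp and rank 7918. Just inside 3000 bp was a member in btsz, a synaptotagmin-like gene, at 2998 bp and rank 5820, and just outside a peak in Btk, a tyrosine kinase gene, at 3003 bp and rank 5131. Strong members also lay close to the bounds, in CG5854 at 518 bp with rank 123 and in upSET at 2954 bp with rank 110, both picked after their values were seen.

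Members were denser than other peaks away from promoters. The intronic sequence that meets the rule, called the territory, is 16.8 Mb, or 12.5% of the arms, and held 110.1 members per Mb. Peaks within 500 bp of a TSS reached 188 per Mb of their own sequence, deep intronic peaks more than 3 kb from a TSS reached 62.2, and intergenic peaks 0.5 to 5 kb from a TSS reached 69.0. In replicates 1, 2 and 3 the members had 110.0, 104.7 and 109.9 per Mb, against 174.6, 207 and 198 for TSS peaks, 64.4, 58.5 and 59.2 for deep intronic peaks and 74.3, 65.5 and 67.3 for intergenic peaks. The ranges do not overlap. The difference, members minus the other class, was 47.5 ± 2.78 per Mb for deep intronic peaks, 39.2 ± 3.39 for intergenic peaks and −84.8 ± 18.9 for TSS peaks (SD, n = 3 each). Each difference had the same sign in 3 of 3 replicates, with an exact two-sided sign-flip permutation p of 0.25, the smallest p that 3 replicates can give, so no comparison over replicates here can pass 0.05. Of 5403 pooled candidates that met the rule, 34.2% were among the reproducible peaks, near the 31.9% of all 30000 candidates. The share was 47.1% for TSS candidates, 26.6% for deep intronic and 25.6% for intergenic ones.

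The density fell with distance from the TSS. It was 138 members per Mb between 500 and 750 bp, 111 between 1000 and 1250 bp, and 87.4 between 2750 and 3000 bp. In the replicates the nearest bin had 148, 139 and 145.0 per Mb, and the farthest had 85.8, 76.8 and 81.7. These do not overlap. Beyond 2000 bp the decline was slight, with 87.4 to 97.2 per Mb in the 4 bins up to 3000 bp. By arm the density was 127.5 per Mb on X, 115 on 3L, 113 on 2R, 107 on 3R and 93.5 on 2L, and chromosome 4 had 1 member in 0.200 Mb.

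**Figure D1:**
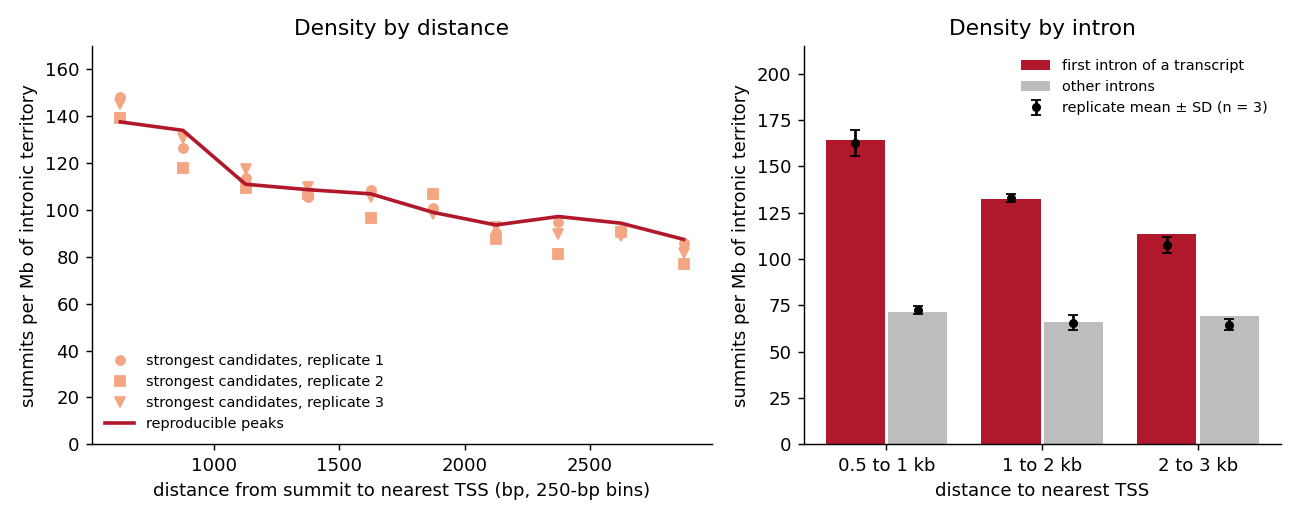
Left, members per Mb of intronic territory (y axis) by distance from the nearest TSS in bp (x axis); the line is the reproducible list and the points are the strongest 9569 candidates of each replicate. Right, the same density in the first intron of any transcript and in other introns, by distance; bars are the reproducible list, and points with error bars are the replicate mean ± SD. The line falls from 138 to 87.4 per Mb, and first introns are above other introns in each band.

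First introns held most members. Of the 1846, 1403 (76.0%) lay in the first intron of at least 1 annotated transcript, against 61.3% of the territory, so the density was 137 per Mb in first introns and 68.2 in other introns. The share was 75.6%, 76.5% and 76.3% in replicates 1, 2 and 3. Between 500 and 1000 bp first introns had 164 members per Mb and other introns 71.5, between 1000 and 2000 bp 132 and 65.8, and between 2000 and 3000 bp 114 and 69.0. The replicate means were 163 ± 6.81, 133 ± 2.25 and 107 ± 4.33 per Mb in first introns, against 72.5 ± 2.37, 65.7 ± 4.07 and 64.5 ± 2.96 in other introns (SD, n = 3). Density was lower in each farther band in first introns. In other introns the nearest band was the highest in the reproducible list and in the replicate means, and the farther bands differed from each other by less than their SDs in the replicates. Members in first introns had a median strength percentile of 53.5, where 100 is the strongest of the reproducible peaks and 0 the weakest, against 45.4 in other introns. They also lay nearer to a TSS, at a median of 1288 bp against 1718 bp. Strength was not split by distance or by replicate here.

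The nearest TSS was usually that of the gene around the member. It belonged to a gene whose span holds the member for 1421 members (77.0%; 77.3% ± 0.138 over replicates), against 68.5% of the territory. Of these 1042 lay downstream of that TSS and 379 upstream of it, between the start sites of a gene with several promoters. The upstream kind was the densest, with 146 members per Mb, and its median strength percentile was 56.3. The downstream kind had 117 per Mb and a percentile of 51.1, and the 425 members nearest to the TSS of another gene had 80.5 per Mb and a percentile of 48.7. Whatever the host, 64.2% of members lay downstream of the nearest TSS, close to the 65.2% of the territory that does.

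Members were denser near a TSS that had a peak of its own, although most lay near one without. For 801 members (43.4%) the nearest TSS had a reproducible summit within 500 bp, while 22.5% of the territory has such a nearest TSS. The density was 212 members per Mb near a TSS with a peak and 80.5 near a TSS without one. Within 500 to 1000, 1000 to 2000 and 2000 to 3000 bp it was 240.4, 219.6 and 178.5 per Mb near a TSS with a peak, against 106, 73.3 and 68.5 near a TSS without one. The share with a peak at the nearest TSS was 40.6%, 47.0% and 44.4% of members in replicates 1, 2 and 3, against 34.9%, 42.7% and 39.4% of deep intronic peaks and 30.5%, 35.2% and 31.7% of intergenic peaks. Members exceeded deep intronic peaks by 5.02 ± 0.660 percentage points and intergenic peaks by 11.6 ± 1.33 (SD, n = 3; higher in 3 of 3 replicates each; exact permutation p = 0.25). The ranges of members and deep intronic peaks over replicates overlap, although members were higher within each replicate. The share depends on how many TSS peaks are counted: it was 23.4% when members and TSS peaks were both taken from the 4784 strongest reproducible peaks, and 35.6% to 38.1% with a replicate left out.

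In strength the members were middling. Their median strength percentile was 51.7, against 53.6 for TSS peaks, 45.9 for deep intronic peaks and 50.5 for intergenic peaks. In replicates 1, 2 and 3 it was 51.4, 53.3 and 51.5, against 45.5, 48.1 and 44.8 for deep intronic peaks, and the groups do not overlap. The difference from deep intronic peaks was 5.95 ± 0.729 (SD, n = 3; higher in 3 of 3 replicates; exact permutation p = 0.25). From TSS peaks the difference was −4.92, 2.40 and −2.22, and from intergenic peaks 2.35, 3.20 and 0.319. So members and TSS peaks were not ordered the same way in every replicate (exact permutation p = 0.75), and replicate 1, which had the fewest TSS peaks, gave the lowest difference. Among the 500 strongest reproducible peaks 101 were members, near their 19.3% share of all reproducible peaks. TSS peaks, 35.6% of all, made up 263 of the 500.

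**Figure D2:**
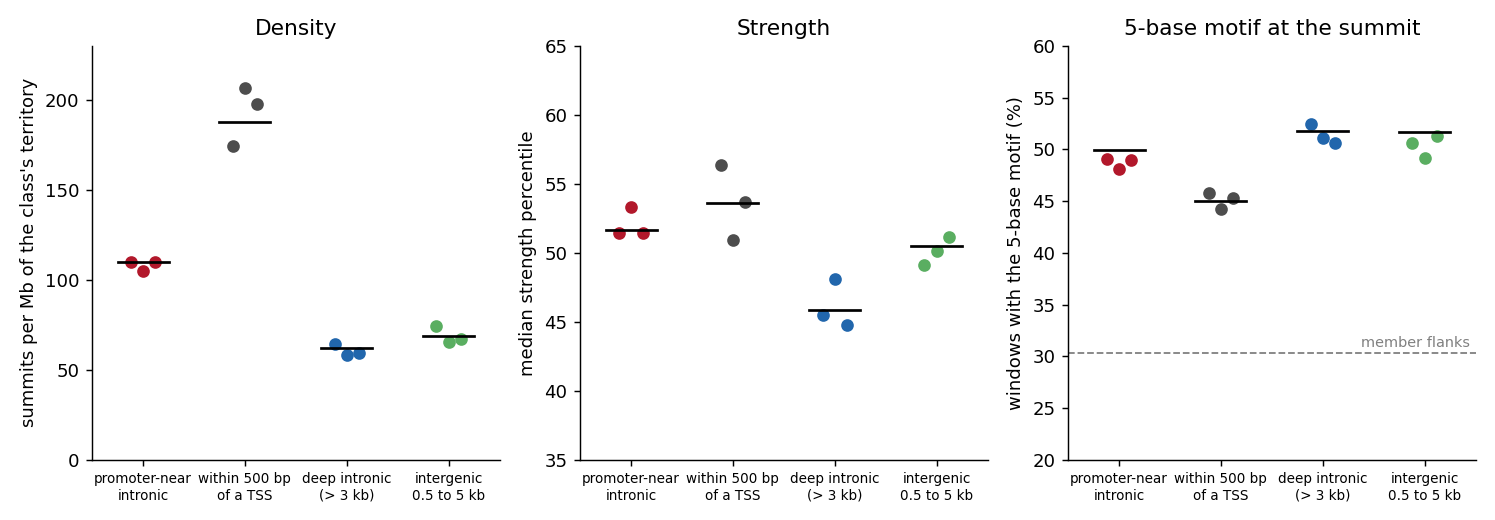
Points are replicates 1, 2 and 3 and the bar is the reproducible list, for members and 3 other location classes (x axis). Left, summits per Mb of the sequence in each class; middle, median strength percentile (axis from 35 to 65); right, share of 201-bp summit windows with the 5-base word (axis from 20 to 60), with the members' flanks dashed. Members sit between TSS peaks and deep intronic peaks in density in each replicate, and above deep intronic peaks in strength.

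Most members were found in each replicate. A region among the strongest 9569 of replicates 1, 2 and 3 overlapped 89.9%, 87.3% and 90.6% of members by at least 1 bp. In all 3 it was 1387 members (75.1%), against 72.8% of all reproducible peaks, and 9 members had no such region in any replicate. With an overlap of 50% of both lengths it was 53.6% of members. The reproducible list was made from these replicates, so this describes the list. Of the members, 262 (14.2%) lay within 500 bp of another reproducible summit, against 14.1% of other reproducible peaks.

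Members were spread over 1073 protein-coding genes by their introns, of which 656 held 1 member and 191 held 3 or more. CG1677 held the most, 14 members in a span of 125 kb, with ranks from 188 to 8178. None of the 14 was nearest to a CG1677 TSS: 4 were nearest to CBP, 3 each to unc-119 and to brk, the repressor of Dpp targets, 2 to CG42780 and 1 each to Dok and CheA7a. Tlk, the Tousled-like kinase gene, held 13 members with ranks from 70 to 8646. The next were Svil (supervillin, an actin-binding protein) and shn (schnurri, a zinc finger effector of Dpp signalling), with 11 members each, sbb (scribbler, a co-repressor) with 10, and CG43658, CG32816 and pnt (pointed, the ETS activator downstream of EGFR) with 9 each. Both shep, an RNA-binding protein gene, and tna, a gene of the trithorax group, held 8. All 10 of the sbb members were nearest to the TSS of another gene, 4 of them to CG14505, and none of the 11 in shn was. These genes are rich in territory, from 13.9 kb in sbb to 58.2 kb in CG32816, and their densities ran from 155 members per Mb in CG32816 to 719 in sbb, against 110.2 over all protein-coding genes. In Svil all 11 members, and in CG1677 13 of 14, were matched in all 3 replicates, against 75.1% of all members. The other hosts had 11 of 13 in Tlk, 8 of 9 in pnt, 8 of 10 in sbb and 7 of 9 in CG43658. In shn it was 8 of 11, in shep and tna 6 of 8 each, and in CG32816 5 of 9.

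Gene lists were described by how many of their genes had a member as host or at the nearest TSS. Over all 9085 protein-coding genes with any territory, 12.6% had one (12.5% ± 0.217 over replicates), with 110.2 members per Mb. Listed genes are long: their median territory was 0.551 to 5.97 kb over the 10 lists named next, against 0.436 kb for all genes, and a gene with more territory has more room for a member, so the density per Mb is given beside each share. The lists were chosen with earlier results of these data known, so no list was tested. Their shares and densities describe the listed genes only.

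The listed signalling genes were dense in members. In Notch, EGFR and JNK signalling 21 of 36 genes had a member, at 303 per Mb of territory. In neur, the ubiquitin ligase that activates Notch ligands, a member 1715 bp downstream of the TSS ranked 96, and 115, 81 and 99 in replicates 1, 2 and 3. In edl, an antagonist of the ETS repressor Yan, the strongest of 2 members ranked 174, and 148, 212 and 203. Raf, the kinase of the EGFR pathway, and aop, which encodes Yan, had 4 members each, the best of which ranked 481 and 649. In Dpp, Wnt, Hedgehog and Hippo signalling 18 of 36 genes had a member, at 268 per Mb. That density counts 61 members in their introns, 11 of them in shn and 10 in sbb. All 10 in sbb were nearest to the TSS of another gene. The strongest member of the list was in ex (expanded, an upstream component of Hippo signalling), with rank 121, and 104, 146 and 125. The glypican gene dlp had rank 474, and the Wnt antagonist nkd 505.

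The listed growth and hormone genes were also above the density of all genes. In insulin, TOR and growth control 14 of 30 genes had a member, at 253 per Mb, led by Lk6. The hypoxia factor gene sima had a best rank of 221, and 315, 221 and 187 in the replicates, and brat, a repressor of growth, held 7 members with a best rank of 316. In the ecdysone response 14 of 26 genes had a member, at 170.4 per Mb. Hr4, an early-late nuclear receptor gene, held 4, the best at rank 69, and 71, 65 and 76 in the replicates. ImpL2, which encodes a secreted antagonist of insulin-like peptides, had 1 at rank 91, and 77, 96 and 117. The ETS factor gene Eip74EF had a best rank of 744, and Eip63E, a cyclin-dependent kinase gene, 788. Members were also assigned to EcR, the ecdysone receptor gene, and to Hr3, ftz-f1, Eip75B and br.

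The listed chromatin, cytoskeleton and stress genes were above all genes in both share and density. In the list of Polycomb, Trithorax and chromatin factors 8 of 37 genes (21.6%) had a member, and its density of 366 per Mb was the highest of the lists, as its 26 members lay in 0.0710 Mb. Of the members, 8 were assigned to psq (pipsqueak, which binds GA repeats), 5 to kis, a chromatin remodeller gene, and 4 to Trl. In actin cytoskeleton and cell shape 16 of 33 genes had a member, at 204 per Mb. The strongest was in crb, a determinant of apical polarity, with rank 145, and 147, 158 and 157, and the next in tsr, which encodes cofilin, with rank 196, and 262, 181 and 191. In stress response and chaperones 6 of 17 genes had a member, at 294 per Mb, and Hsp83, the gene for the chaperone Hsp90, had rank 168, and 247, 118 and 181. Diap1, an inhibitor of apoptosis, had 6 members. With replicate 2 or replicate 3 left out, so that only members matched in both other replicates count, the stress count was 3.

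The other 3 lists were under the density of all genes. In muscle structure and regulators 11 of 32 genes had a member, at 98.8 per Mb, with a best rank of 914 in Msp300, a gene of the nuclear anchoring protein nesprin. Counting only members matched in both other replicates, that count was 7 without replicate 1 and 6 without replicate 2. In appendage and eye patterning regulators 7 of 43 had one, at 89.9 per Mb, among them ush with 6 members and bowl, an odd-skipped family gene, with 5. In axon guidance and neuronal adhesion 13 of 41 had one, at 57.7 per Mb, the lowest of the 10 lists although its genes had the largest median territory, 5.97 kb. Its best were in Ptp10D, a receptor tyrosine phosphatase gene, with rank 246, and in kirre, a cell adhesion gene of myoblast fusion, with rank 402, although that member also lay in CG32795 and was nearest to its TSS. The strongest member nearest to a kirre TSS ranked 792. Genes of cytosolic ribosomal proteins had no member in 27 with territory, but their territory was only 0.00534 Mb in all.

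**Figure D3:**
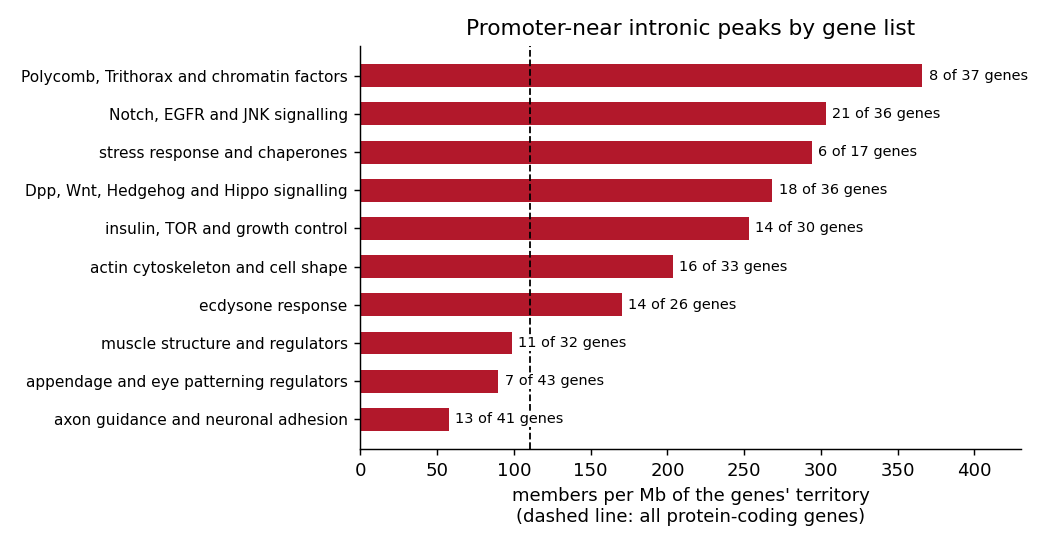
Members per Mb of territory in the genes of 10 lists (x axis, from 0), with the number of genes that have a member as host or at the nearest TSS. The dashed line is the 110.2 per Mb of all protein-coding genes, and 7 lists lie above it and 3 below.

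The sequence at member summits was rich in A and T. In windows of 201 bp centred on the summit the median content was 64.7% in members, against 57.5% in flank windows centred 500 bp away on either side, 60.2% in windows tiled over the territory and 58.7% in candidates of the territory that were not among the reproducible peaks. Flank windows were not limited to the territory. For the 599 members between 500 and 1000 bp from a TSS, a flank window is centred within 500 bp of that TSS. The median content was 61.2% at TSS peaks, 64.7% at deep intronic and 65.2% at intergenic peaks. In the replicates the members had 64.7% each time, against 61.7%, 60.2% and 61.2% at TSS peaks, so the members were above TSS peaks in each (difference 3.65 ± 0.760 percentage points, SD, n = 3; exact permutation p = 0.25). The profile has a single maximum: the mean was 66.1% in the 20 bases to the left of the summit, and 56.5% and 55.3% in the bins centred 210 bp to the left and right.

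**Figure D4:**
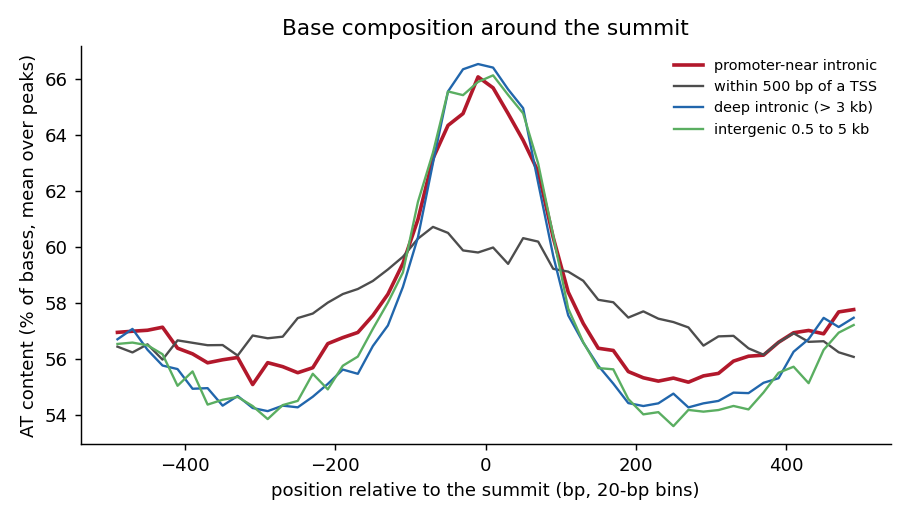
Mean AT content in percent (y axis, from about 53) in 20-bp bins against distance from the summit in bp (x axis), for members and the 3 other classes. Members reach 66.1% beside the summit, as narrow as deep intronic and intergenic peaks, while TSS peaks stay near 59.8% there.

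Of 30 short motifs searched on both strands, 12 were found in more summit windows than flank windows and 17 in fewer. The largest differences were for the TATA box, the initiator and a tract of A bases. The TATA box and A tract as searched hold A and T alone, and all 16 words of 5 bases of that kind were more frequent at summits. Base composition was not taken into account in these shares. The TATA box, searched as TATAAA, was in 33.0% of member summits, 20.3% of flanks and 25.3% of territory windows, with 33.1% ± 0.782 over replicates. TSS peaks had it in 30.1%, deep intronic peaks in 33.7% and intergenic peaks in 35.2%. The A tract, searched as a run of 7 A, was in 28.5% of members, 21.8% of TSS peaks, 29.6% of deep intronic peaks and 26.3% of intergenic peaks. Flanks had it in 22.0% and the territory in 19.9%. The initiator, searched as TCAGT, was in 36.1% of members, 36.0% of TSS peaks, 39.2% of deep intronic peaks and 38.4% of intergenic peaks. Flanks had it in 27.8% and the territory in 29.0%. But it overlaps the word described next: windows in which a further G follows made up 16.0% of members and 8.04% of flanks. Windows with the initiator only in other forms made up 20.1% and 19.7%. With 50 bp to either side of the summit in place of 100 the shares in members were 18.6% for the TATA box, 13.7% for the A tract and 18.3% for the initiator. The promoter motif DRE (TATCGATA) was in 0.325% of members, against 4.50% of TSS peaks, 0.357% of deep intronic peaks, 0.620% of intergenic peaks, 0.298% of flanks and 0.440% of the territory. The GA repeat bound by GAGA factor, searched as GAGAGAG, was in 4.50% of members, 6.88% of flanks and 2.93% of the territory. TSS peaks had it in 9.37%, deep intronic peaks in 3.21% and intergenic peaks in 2.66%.

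The word CAGTG was then found by comparing all 512 words of 5 bases, with both strands as 1, between summits and flanks, so it was chosen after its shares had been seen. It was in 922 members (49.9%), against 30.3% of flanks, 28.3% of territory windows and 38.4% of the candidates outside the reproducible list, the difference from the flanks ranking 4 of 512. The words above it hold A and T alone, and all 16 such words were more frequent at summits. Among the 256 words with 3 or more G or C, CAGTG had the largest difference and 17 were more frequent at summits than in flanks. In replicates 1, 2 and 3 the share in members was 49.1%, 48.1% and 49.0%, and the difference from flanks 18.3 ± 1.06 percentage points (SD, n = 3). The word was picked for this difference in the list made from these replicates, so its direction is a description and was not tested. It was higher at summits than flanks on arms 2L, 2R, 3L, 3R and X, from 46.6% against 29.5% on 3L to 54.9% against 28.7% on 2L.

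CAGTG was not particular to members. TSS peaks had it in 45.0% of windows, deep intronic peaks in 51.8% and intergenic peaks in 51.7%. The difference, members minus the other class, was 3.62 ± 0.277 percentage points for TSS peaks and −2.67 ± 0.943 for deep intronic peaks (SD, n = 3; same sign in 3 of 3 replicates each; exact permutation p = 0.25). Copies went with strength among the members. The share with 2 or more copies was 21.1%, 16.5%, 14.1%, 12.5% and 7.59% in 5 equal groups of members from the strongest to the weakest, against 6.23% of flanks. The share with any copy was 52.8% in the strongest group and 45.8% in the weakest. The subsets of members by TSS had similar shares, from 49.6% for those upstream of their own gene's TSS to 50.8% for those near another gene's.

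The copies were densest beside the summit. The distances used here and the direction counted in the next paragraph were not among the planned measures, so their values are a description. Between 40 and 100 bp to either side of member summits there were 4.07 copies per kb, within 40 bp 2.34, and between 200 and 300 bp 2.17. In the replicates the sides had 3.91, 3.94 and 3.82 per kb and the centre 2.61, 2.35 and 2.53, and these do not overlap. Copies were thus also found within 40 bp of the summit, as in Lk6. Over that whole span they were slightly denser than the 2.17, 2.08 and 2.17 per kb between 200 and 300 bp. In the reproducible list, copies on each strand were sparser within 20 bp of the summit than between 20 and 40 bp. The value for the centre therefore does not describe the summit itself. Deep intronic peaks had more at the sides, 4.40, 4.49 and 4.32 per kb, and TSS peaks fewer, 3.07, 3.03 and 3.13, while intergenic peaks had 3.89, 4.19 and 4.11. At the sides, members minus deep intronic peaks was −0.514 ± 0.0281 per kb and members minus TSS peaks 0.814 ± 0.117 (SD, n = 3; exact permutation p = 0.25). Members minus intergenic peaks was −0.173 ± 0.168 and did not have the same sign in every replicate (SD, n = 3; exact permutation p = 0.5). At TSS peaks the centre had as many as the sides, 3.08 and 3.10 per kb.

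The copies at the sides had a preferred direction, weaker in members than in other distal peaks. Read on the plus strand, a copy was counted as outward when it was CACTG on the left or CAGTG on the right. In members 508 side copies were outward and 408 were not (55.5% outward), against 64.1% in deep intronic peaks, 68.8% in intergenic peaks and 50.1% in TSS peaks. In replicates 1, 2 and 3 the share was 56.0%, 53.9% and 53.1% in members, against 63.5%, 64.1% and 64.3% in deep intronic peaks, 65.8%, 67.7% and 67.5% in intergenic peaks and 49.5%, 52.7% and 49.96% in TSS peaks. Members minus deep intronic peaks was −9.65 ± 1.91 percentage points and members minus intergenic peaks −12.7 ± 2.49, with no overlap of the ranges (SD, n = 3; lower in 3 of 3 replicates; exact permutation p = 0.25). Members minus TSS peaks was smaller, 3.57 ± 2.68 (SD, n = 3), at 6.44, 1.14 and 3.12 in replicates 1, 2 and 3, with an exact permutation p of 0.25. Among the members the share was 53.8% at 500 to 1000 bp from the TSS, 52.9% at 1000 to 2000 bp and 61.4% at 2000 to 3000 bp. In members among the 4784 strongest reproducible peaks it was 51.7%.

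**Figure D5:**
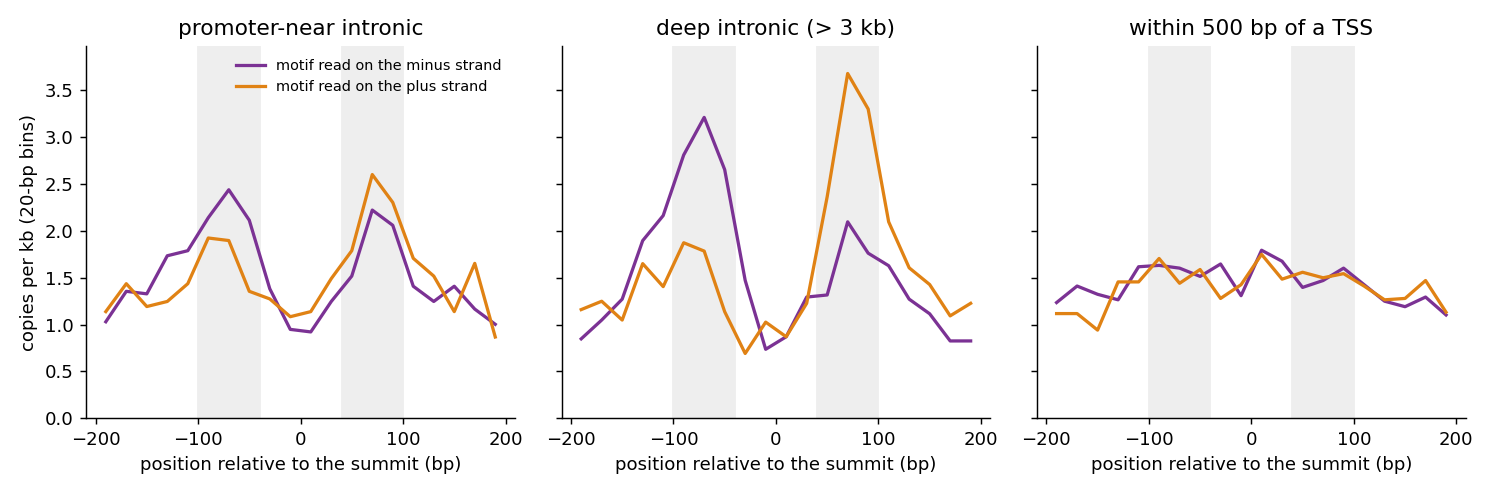
Copies of the 5-base word per kb (y axis) in 20-bp bins against distance from the summit in bp (x axis), by strand, for members, deep intronic peaks and TSS peaks; grey marks 40 to 100 bp from the summit. In members the minus-strand copies reach 2.44 per kb on the left and the plus-strand copies 2.60 on the right, against 3.21 and 3.68 in deep intronic peaks, and TSS peaks show neither maximum.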

How the data were processed

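The data are 5 peak lists on build dm6: the reproducible peaks, the pooled candidates and the candidates of each replicate. Per the deposited provenance texts, replicate candidates came from 1 replicate and 1 control file, pooled candidates from all 3 replicates with the same control, and the reproducible list was selected by IDR (irreproducible discovery rate), which compares ranks between replicates. The authors' peak signal was taken as deposited and, its scale being unknown, used only for ranks within a list; the 9569 reproducible peaks are the top 9569 of 30000 pooled candidates. The authors' deposited −log10 q-values could not rank members, 88.4% of which share the highest value, 4.23. The IDR threshold, the aligner and the peak caller with its settings are each not given in the sources used here. Sonicated fragments were 200 to 800 bp, per the labels. The files hold no read counts, so depth is unknown. Deposited dm3 lists were not used.

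Gene models were those of Ensembl release 115 (BDGP6.54) on arms 2L, 2R, 3L, 3R, 4 and X, leaving out transposable elements. Bases were read from RefSeq's sequence of that assembly, whose arms hold all regions. When TSSs coincided, a protein-coding gene was preferred. The same rules applied to the strongest 9569 candidates of each replicate gave each SD and the exact two-sided sign-flip permutation tests over 3 biological replicates. Location classes, motifs and gene lists were described without tests across peaks or genes. Members, gene lists and motifs were chosen with earlier results of these data known. Of 369 names in 10 lists, 356 matched directly, 8 by an older name and 5 not at all; ribosomal protein genes were found by name pattern. Named items were the 15 strongest members, the 10 genes hosting most, up to 4 genes per list with the strongest member, the members at each bound, and the 3 motifs with the largest difference between summit and flank; CAGTG and other names that fill small counts were added after their values had been seen. Alternatives changed the bounds, the TSSs, summit or midpoint, the number of peaks, the gene models, thinning, the overlap, the sequence window and the replicates. Scripts were tested on simulated positions and sequence. Tools were Python 3.11.15, numpy 2.4.6, pandas 2.3.3, scipy 1.17.1 and matplotlib 3.10.9.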

Additional observations from a re-analysis of the deposited data

How the results depend on the processing

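A value was taken as moved when it differed by more than 1 SD over replicates, and a count when it differed by more than 1.5 times. Of 180 recomputed values 120 did not move and 60 moved. All are values of the members, so the direction of differences from other classes, flanks or other introns was not recomputed. The midpoint in place of the summit, and RefSeq in place of Ensembl gene models, moved none of the results recomputed with them, which leave out the gene lists and the share matched in all 3 replicates. With the inner bound at 1000 bp, the share of reproducible peaks was 13.0%, strength percentile 50.1, downstream 64.9%, own TSS 74.8%, density 100.9 per Mb, initiator 36.8% and CAGTG 51.8%. With the outer bound at 2000 bp they were 14.1%, 52.8, 65.1%, 79.9% and 118 per Mb, with CAGTG 49.3% and outward copies 53.3%. With protein-coding TSSs only, the share was 17.9%, downstream 65.7% and own TSS 85.2%. Among the 4784 strongest peaks there were 949 members (19.8%), with 62.8% downstream, 78.3% own TSS, 23.4% with a peak at the nearest TSS, 56.6 per Mb, TATA box 35.1%, initiator 39.4%, A tract 29.9%, CAGTG 52.5% and outward copies 51.7%. Fewer peaks lower the density and the peaks at the nearest TSS by construction; no other cause was tested. Thinned to 1 peak in 500 bp, own TSS was 76.7%, density 102 per Mb and initiator 36.8%. In windows of 50 bp to either side, TATA box was 18.6%, initiator 18.3%, A tract 13.7% and CAGTG 21.5%. With 50% overlap, 53.6% of members were matched in all 3 replicates. Leaving out each replicate in turn meant keeping only reproducible peaks matched in both other replicates, which left 1478 to 1529 members. The reproducible list itself, made from all 3 replicates, was not remade. Keeping fewer peaks lowers the density and the peaks at the nearest TSS by construction here too. The ranges were 19.4% to 19.9% (share), 63.7% to 64.1% (downstream), 77.1% to 77.6% (own TSS), 35.6% to 38.1% (peak at nearest TSS) and 88.1 to 91.2 per Mb. For the motifs they were TATA box 33.6% to 34.2%, A tract 28.7% to 29.9% and CAGTG 50.3% to 51.6%. Over the 10 gene lists, 128 genes had a member, 128 by host alone, and 9 of 50 recomputed list counts moved, 5 of them among the 4784 strongest peaks. The rule's bounds and the unknown depth limit what these shares describe.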
